A study of Mus musculus with 8 samples.

Results

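The proteasome subunit genes are the genes whose products build or regulate the proteasome, the barrel-shaped protease that degrades proteins tagged with ubiquitin. They were taken as the protein-coding genes of the RefSeq annotation of GRCm38 (the assembly that mm10 also names) on chromosomes 1 to 19 whose symbol is Psm, a letter from a to g and a number. The rule found 47 of 20661 genes. H3K79me2, histone H3 dimethylated at lysine 79 by the methyltransferase DOT1L, was mapped over them by chromatin immunoprecipitation and sequencing (ChIP-seq) in cultured mouse spermatogonial stem cells. The cells came from the testes of 7-day-old ROSA mice of the strain B6.129S7-Gt(ROSA)26Sor/J, which carry a LacZ reporter in every tissue. They were kept for 2 months on SNL 76/7 feeders, a mouse fibroblast line, in medium lacking serum and holding GDNF at 10 ng/mL and FGF2 at 0.5 ng/mL. One culture condition then received 2 µM EPZ5676, an inhibitor of DOT1L, and the other the vehicle, both for 7 days. The vehicle is DMSO in the protocols and appears as ethanol, abbreviated, in the sample descriptions, so its identity is uncertain.

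The series has 8 samples in 4 groups of 2 (H3K79me2 and input, with and without EPZ5676), and the files hold 1 peak list per condition. There is therefore no replicate error, the read depth is unknown, and no test between conditions or gene groups was made; all values below describe the 2 lists. The control list held 47774 peaks over 169 Mb and the EPZ5676 list 9182 peaks over 4.64 Mb. The labelled cell type was checked with marker genes. All 9 genes of undifferentiated germ cells (among them Zbtb16, Gfra1, Ret and Ddx4) had a control peak, with 23.2 to 91.5% of the span covered, and none had an EPZ5676 peak. Of 8 fibroblast genes, which the feeder cells would carry, 5 had a control peak and 4 an EPZ5676 peak, with 0 to 27.0% of the span covered in the control. The shares over all protein-coding genes were 54.2% for a control peak and 13.0% for an EPZ5676 peak. The fibroblast genes were thus near the background in the control (62.5%) and above it after EPZ5676 (50.0%). Their median span was 37048 bp. Among all genes, an EPZ5676 peak lay on 14.6% of those of 20 to 50 kb and 31.2% of those of 50 to 120 kb. The EPZ5676-covered length of the fibroblast genes was 20.8% of their control-covered length, against 2.30% over all genes. The collagen genes Col1a2 and Col3a1 and the vimentin gene Vim were at 0. The part of feeder cells in the values below was not tested, and fewer cells with the mark cannot be told apart from less mark per cell.

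The 20S core particle is a stack of rings of alpha and beta subunits, and the proteolytic sites sit on the beta subunits Psmb5, Psmb6 and Psmb7. The 19S regulatory particle caps the core, binds ubiquitin chains, and unfolds substrates with a ring of ATPases. Immune, thymus and testis forms of single core subunits replace their constitutive partners in particular cells: Psmb8, Psmb9 and Psmb10 in cells exposed to interferon, Psmb11 in the thymic cortex and Psma8 in male germ cells from meiosis onwards. H3K79me2 is known as a mark of the first part of transcribed genes.

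In control cells H3K79me2 lay over nearly the whole family. Of the 47 genes, 45 had a control peak on at least 1 bp of the gene span, and the 2 without one were Psmb8, an immune form, and Psmb11, the thymus form. A control peak was found on 54.2% of all protein-coding genes. The median share of the span inside control peaks was 39.8% over the 47 genes (quartiles 30.0 and 59.4%) and 3.75% over all genes. More than 50% of the span was covered in 16 of the 47, against 16.7% of all genes. The difference from other genes was present among short genes too. Of 9 members shorter than 5 kb, 7 had a control peak, where 24.8% of all genes of that length had one. All 11 members of 5 to 10 kb had one, where 50.1% did. The class under 5 kb is not closely matched, with a median span of 3260 bp for members and 1993 bp for all genes. In the class of 5 to 10 kb both medians were 7254 bp.

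**Figure D1:**
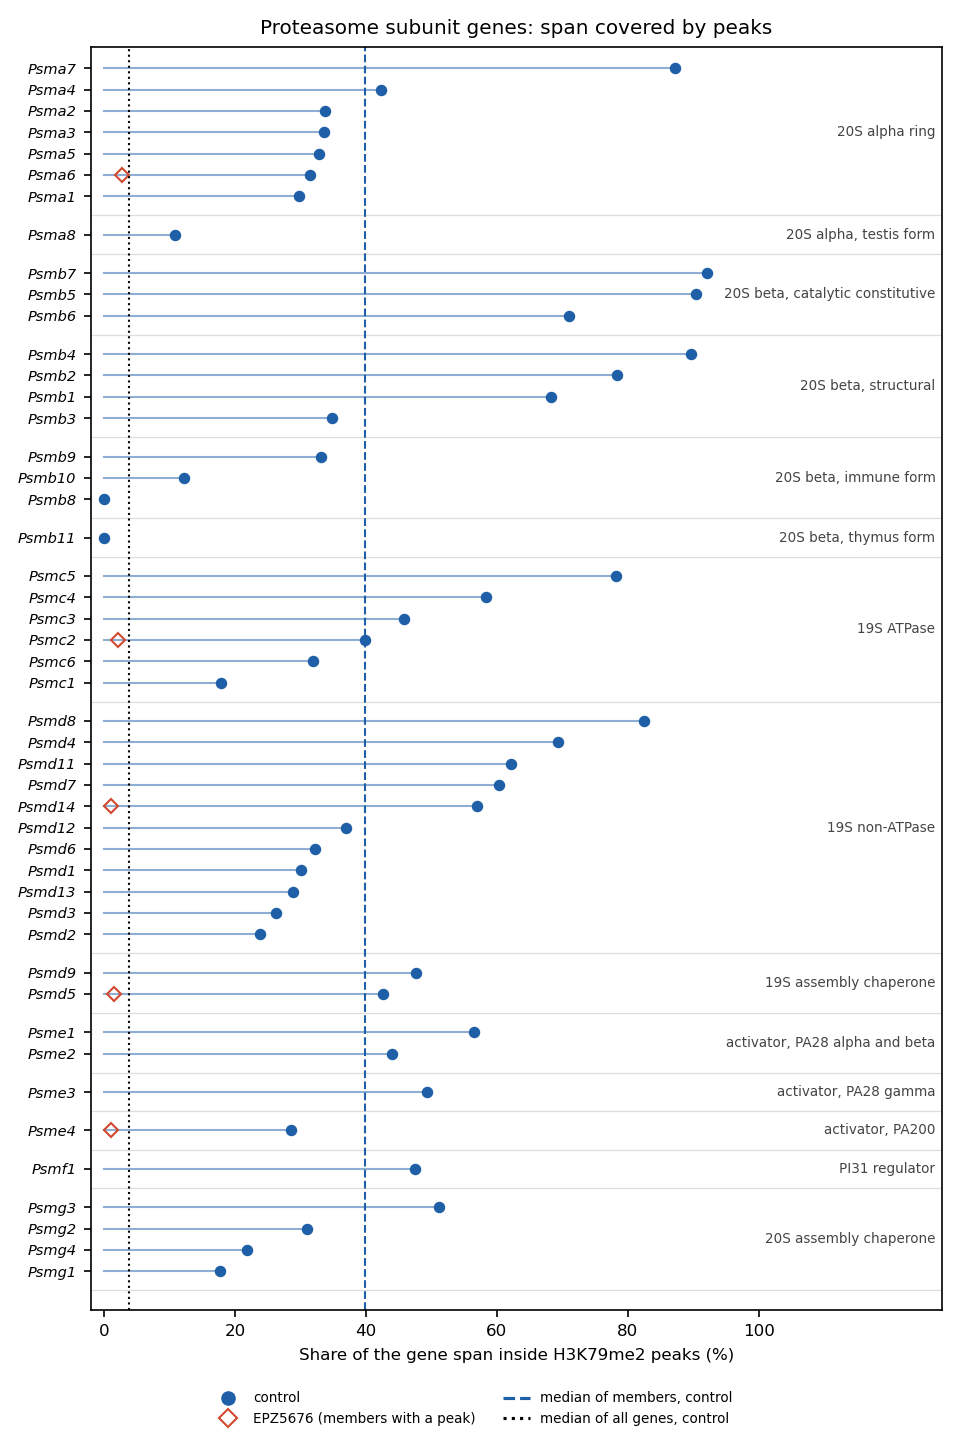
Each row is 1 gene, grouped by role; filled circles give the percentage of the gene span inside control peaks and open diamonds the same for EPZ5676 in the 5 genes with such a peak. Dashed and dotted lines mark the control medians of the 47 genes (39.8%) and of all protein-coding genes (3.75%). The immune, thymus and testis forms lie at 33.2% or lower, as do other members such as Psmg1 (17.7%) and Psmc1 (17.8%). Every EPZ5676 value is under 3%.

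The alpha ring genes, whose products form the outer rings and the gate of the core, were covered evenly. Of the 7, 6 had between 29.8% (Psma1) and 42.3% (Psma4) of the span in control peaks, and Psma7 stood above them at 87.2%. Psma7 (chromosome 2, 180036367 to 180042464) lay under a peak of 16062 bp, of which 5317 bp fell in its span and 10745 bp ran out upstream over the neighbouring gene Ss18l1. The highest fold enrichment of a control peak, a deposited value read here as a ratio of signal to background, ranged from 3.49 at Psma1 to 6.41 at Psma6. Psma3 (8928 bp) and Psma5 (7554 bp) each carried a single peak of fold 5.89 and 5.86, whereas Psma2 carried 3 peaks over 4188 bp. The first Psma2 peak lay mostly outside the gene, with 2017 of its 2932 bp upstream, where it overlapped Mrpl32.

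The constitutive beta genes included the most fully covered members. The 3 catalytic genes had 92.1% (Psmb7, the trypsin-like site), 90.5% (Psmb5, the chymotrypsin-like site) and 71.1% (Psmb6, the caspase-like site) of their spans covered. At Psmb7 (chromosome 2, 38588046 to 38643952) 1 peak ran 51148 bp, the widest over any member, with a fold enrichment of only 3.03. Psmb5 (chromosome 14, 54614120 to 54617995) and Psmb6 (chromosome 11, 70525324 to 70527858) are short genes with single peaks of 3506 and 1802 bp. Of the structural beta genes, Psmb4 had 89.6%, Psmb2 78.4%, Psmb1 68.3% and Psmb3 34.8% of the span covered. All 14 constitutive core genes were marked in the control, against 54.2% of all genes, with a median of 55.3% of the span.

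The immune, thymus and testis forms had a smaller share of their span in control peaks than their constitutive partners in each of the 5 pairings, of which 2 use Psmb5. The partners themselves had 71.1 to 92.1%, above the median of 55.3% over the 14 constitutive core genes. Of the 5 forms, only Psmb9 lay above the lowest share of those 14 genes, 29.8% at Psma1. Psmb8 (chromosome 17, 34198195 to 34201454), the immune form of Psmb5, had 0 bp in control peaks against 3506 bp for Psmb5. Psmb11 (chromosome 14, 54625310 to 54629556), the thymus form of the same subunit, also had 0 bp, although only 7314 bp separate its span from the start of Psmb5. Psmb9 (chromosome 17, 34182030 to 34187330), the immune form of Psmb6, had 1761 bp or 33.2% of the span, against 71.1% for Psmb6. Psmb10 (chromosome 8, 105935728 to 105938392), the immune form of Psmb7, had a single peak of 326 bp, 12.2% of the span, with a fold of 2.56. Psma8 (chromosome 18, 14706135 to 14762301), the testis form of Psma7, had 2 peaks of 4308 and 1764 bp at one end of the gene. They covered 10.8% of the span, with folds of 2.88 and 2.21. In covered bases this pairing ran the other way, with 6072 bp for Psma8 and 5317 bp for Psma7. The Psma8 span is 56167 bp and the Psma7 span 6098 bp. Over the 5 forms the median share was 10.8%, and 3 of the 5 had a control peak, against 14 of 14 constitutive core genes and 54.2% of all genes. The count for the 5 forms (60.0%) was thus near the share over genes of all lengths, while the constitutive count lay above it. That share is not matched for length, and the median span of the 5 forms was 4247 bp. A control peak lay on 24.8% of all genes under 5 kb and on 50.1% of those of 5 to 10 kb. None of the 5 had an EPZ5676 peak, where 13.0% of all genes and 0.875% of those under 5 kb had one. The groups are small and their spans differ, so these are values of single genes and not a test.

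Psmb8 and Psmb9 lie in the major histocompatibility complex beside Tap1 and Tap2, which encode the transporter that carries proteasome-made peptides into the endoplasmic reticulum. Control peaks covered 1761 bp of Psmb9, 1907 bp of Tap1 (19.7% of the span) and 2195 bp of Tap2 (18.5%), while Psmb8 between them was bare. The region had no EPZ5676 peak.

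**Figure D2:**
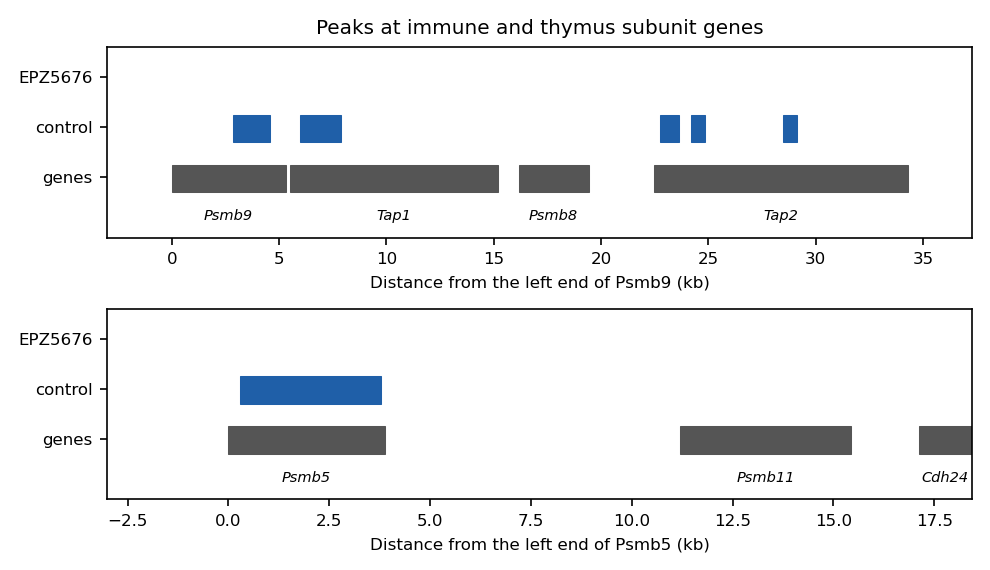
Gene spans (grey), control peaks (blue) and EPZ5676 peaks (none present) against distance in kb from the left end of Psmb9 (upper panel) or Psmb5 (lower panel). Psmb8 and Psmb11 hold no peak, while a control peak covers 90.5% of Psmb5.

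The promoter windows of Psmb5 and Psmb6 are shown beside those of their immune counterparts Psmb8 and Psmb9, since for these pairs the table holds both windows and the control coverage of the partners differed (90.5 against 0% and 71.1 against 33.2% of the span). The windows run from 250 bases before to 50 after the start, 5′ to 3′ on the gene's strand (RefSeq, GRCm38.p6). Capitals mark matches to the antioxidant response element core TGACNNNGC, the motif of the proteasome regulator NFE2L1, the CCAAT box CCAAT, the interferon gamma site TTCNNNGAA, or the interferon response element, on either strand. Each window holds 1 such match, so none overlap.
Psmb5 (chr14:54617946-54618245, minus strand): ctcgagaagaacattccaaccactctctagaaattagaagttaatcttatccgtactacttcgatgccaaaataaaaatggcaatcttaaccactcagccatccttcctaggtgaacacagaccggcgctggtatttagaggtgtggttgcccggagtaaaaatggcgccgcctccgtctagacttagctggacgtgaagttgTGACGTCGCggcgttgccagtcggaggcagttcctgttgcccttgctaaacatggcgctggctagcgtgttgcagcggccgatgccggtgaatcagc
Psmb6 (chr11:70525107-70525406, plus strand): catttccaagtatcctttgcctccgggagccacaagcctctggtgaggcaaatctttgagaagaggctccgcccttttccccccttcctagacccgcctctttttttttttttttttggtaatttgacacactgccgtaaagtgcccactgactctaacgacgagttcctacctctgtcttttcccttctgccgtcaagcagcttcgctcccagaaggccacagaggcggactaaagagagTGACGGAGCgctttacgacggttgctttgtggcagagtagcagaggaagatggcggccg
Psmb8 (chr17:34197945-34198244, plus strand): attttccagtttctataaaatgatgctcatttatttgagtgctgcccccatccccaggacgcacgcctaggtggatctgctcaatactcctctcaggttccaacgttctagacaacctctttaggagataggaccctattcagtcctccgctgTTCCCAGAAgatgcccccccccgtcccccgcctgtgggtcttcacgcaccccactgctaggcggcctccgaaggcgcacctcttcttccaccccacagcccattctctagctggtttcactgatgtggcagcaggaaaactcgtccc
Psmb9 (chr17:34187281-34187580, minus strand): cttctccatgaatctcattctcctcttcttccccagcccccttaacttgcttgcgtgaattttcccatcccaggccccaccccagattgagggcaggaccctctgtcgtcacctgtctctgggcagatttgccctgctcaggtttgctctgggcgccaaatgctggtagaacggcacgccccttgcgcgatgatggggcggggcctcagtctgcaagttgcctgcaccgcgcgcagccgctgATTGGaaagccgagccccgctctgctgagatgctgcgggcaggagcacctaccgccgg

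The antioxidant element core was found 47 bases before the start in Psmb5 and 9 bases before it in Psmb6. The Psmb8 window held an interferon gamma site beginning 97 bases before the start, and the Psmb9 window a CCAAT box on the opposite strand beginning 8 bases before it. None of the 4 windows overlapped a peak of either list. That is the common state of gene starts here. The start base lay in a control peak in 6.57% of all genes with a listed start, and in an EPZ5676 peak in 0.0486%. In the 39 members with a listed start (the outermost where there were several), the antioxidant core was present in 6 windows (15.4%), against 13.2% of 16456 windows of all protein-coding genes. CCAAT was present in 33.3% of members and 39.1% of all windows, and TTCNNNGAA in 7.7 and 7.9%. The interferon response element was present in 5 members (12.8%, against 3.4% of all windows), namely Psmb3, Psmd4, Psmd9, Psme1 and Psmg4, and in no immune form. The matches are descriptions of letters in these windows and no evidence of binding.

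All 19 genes of the 19S particle and its assembly were marked in the control, against 54.2% of all protein-coding genes. The 6 ATPase genes, whose products form the unfolding ring, ranged from 17.8% of the span at Psmc1 (2340 bp) and 32.0% at Psmc6 to 58.4% at Psmc4 and 78.2% at Psmc5 (5415 bp). The 11 non-ATPase genes had a median of 36.9%, with Psmd8 (82.5%) and Psmd4 (69.3%), a ubiquitin receptor gene, at the top and Psmd3 (26.3%) and Psmd2 (23.8%), a scaffold gene, at the bottom. Psmd12, another scaffold gene (chromosome 11, 107479528 to 107498036), held the strongest peak of the family. That peak was 6926 bp wide with a fold of 8.54, above 99.9% of control peaks. Psmd1, the large scaffold gene, followed with a fold of 7.25. Of its 8 control peaks, 4 lay in the stretch that overlaps Htr2b, a serotonin receptor gene inside the Psmd1 span, so that part of its 22482 bp cannot be assigned to Psmd1 alone. Psmd14, the deubiquitinase gene (chromosome 2, 61711694 to 61800376), had 50560 bp in 4 peaks, the widest 48252 bp. Psmd11 had 27763 bp. The chaperone genes Psmd5 (42.6%) and Psmd9 (47.7%), which help to assemble the ATPase ring, were close to one another.

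The activators and regulators were covered to a similar degree. Psme1 and Psme2, whose products form the interferon-induced activator PA28, had 56.5% (1715 bp) and 44.0% (1611 bp) of the span in control peaks. Psme3, the gene of the nuclear activator PA28 gamma, had 49.4% with a fold of 5.52. Psmf1, the gene of the regulator PI31, had 47.5%. Psme4 (chromosome 11, 30771775 to 30881150) is the gene of PA200, an activator known for histone degradation in male germ cells. It had 28.5% of its 109376 bp covered, or 31219 bp, in 2 peaks. They ran from 369 to 25092 bp and from 25697 to 32191 bp after its start. The 4 core assembly chaperones were lower in enrichment, with folds of 2.58 to 3.04 against a median of 4.02 over the marked members and 3.36 over all genes with a control peak. Psmg3 had 51.2% of the span covered, Psmg2 31.0%, Psmg4 21.8% and Psmg1 17.7%.

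**Figure D3:**
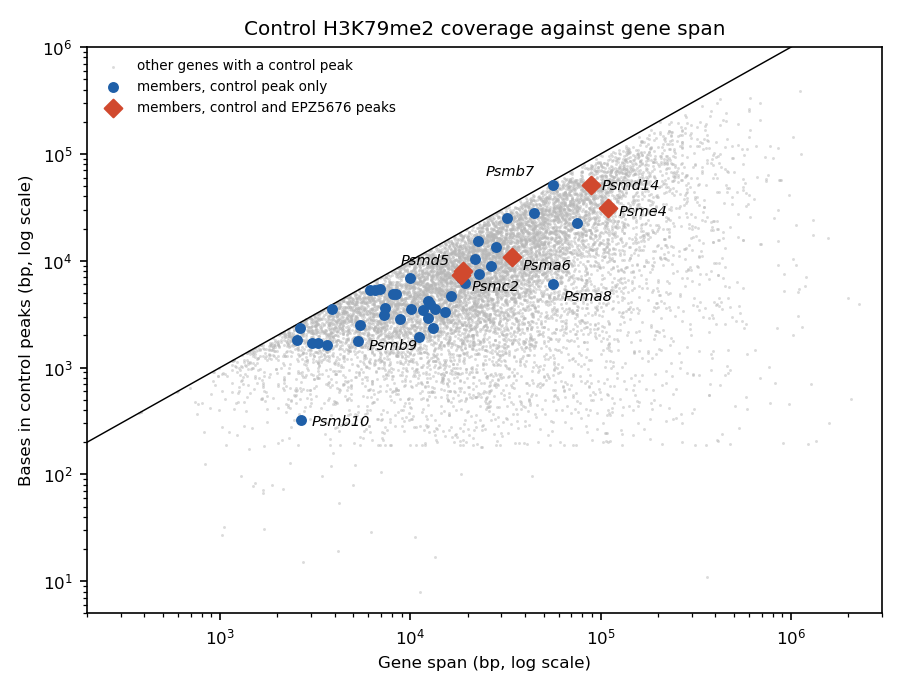
Bases in control peaks against gene span, both on log scales, for every protein-coding gene of chromosomes 1 to 19 with a control peak (grey) and the 45 marked members (blue, or red diamonds where an EPZ5676 peak was also present); the line marks full coverage. Psmb10 (326 bp) and Psma8 (6072 bp) lie far below the line, and Psmb7 (51496 bp of 55907 bp) close to it.

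After EPZ5676 most of the family had no peak left. Of the 45 genes marked in the control, 5 also had an EPZ5676 peak (11.1%), and no member had an EPZ5676 peak alone. An EPZ5676 peak lay on 13.0% of all protein-coding genes and on 19.9% of those with a control peak, so the members' share was no higher than the background. The 47 genes had 402976 bp in control peaks and 3678 bp in EPZ5676 peaks, which is 0.913% of the control length, against 2.30% over all genes. None of the 9 members under 5 kb and none of the 11 of 5 to 10 kb had one, where 0.875% and 2.06% of all genes of those lengths did. It was 2 of 14 members of 10 to 20 kb (5.23% of all genes), 1 of 8 of 20 to 50 kb (14.6%) and 2 of 5 of 50 to 120 kb (31.2%).

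The 5 genes came from different parts of the particle. Psma6, an alpha ring gene (chromosome 12, 55384222 to 55418459), had 10786 covered bp in the control list and 924 bp in the EPZ5676 list, the longest single EPZ5676 peak in the family. Psmc2, an ATPase gene (chromosome 5, 21785275 to 21803787), had 7375 and 397 bp. Psmd5, a chaperone gene (chromosome 2, 34852087 to 34870965), had 8037 and 292 bp. Psmd14 had 50560 bp and, in 2 peaks, 958 bp. Psme4 had 31219 bp and, in 3 peaks, 1107 bp. The EPZ5676 coverage was thus 1.01 to 2.70% of each span. Those 5 genes were longer than the 40 marked in the control only, with a median span of 34238 bp against 11298 bp, and had a median highest control fold of 5.79 against 3.88.

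All 8 EPZ5676 peaks lay wholly inside the strongest control peak of their gene, nearer its 5′ than its 3′ edge. They began 995 to 5692 bp from the 5′ edge of that peak, whose width was 6388 bp at Psmc2 and up to 48252 bp at Psmd14. Their deposited −log10 q ranged from 1.21 (Psmc2) to 2.58 (Psme4), where the lowest in the EPZ5676 list is 1.04. The 712 bp peak at Psme4 had a fold of 3.19, above 98.1% of EPZ5676 peaks, while the 257 bp peak at Psmd14 had a fold of 2.52, above only 1.45%. With peaks of −log10 q of at least 2, Psme4 was the one member left.

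**Figure D4:**
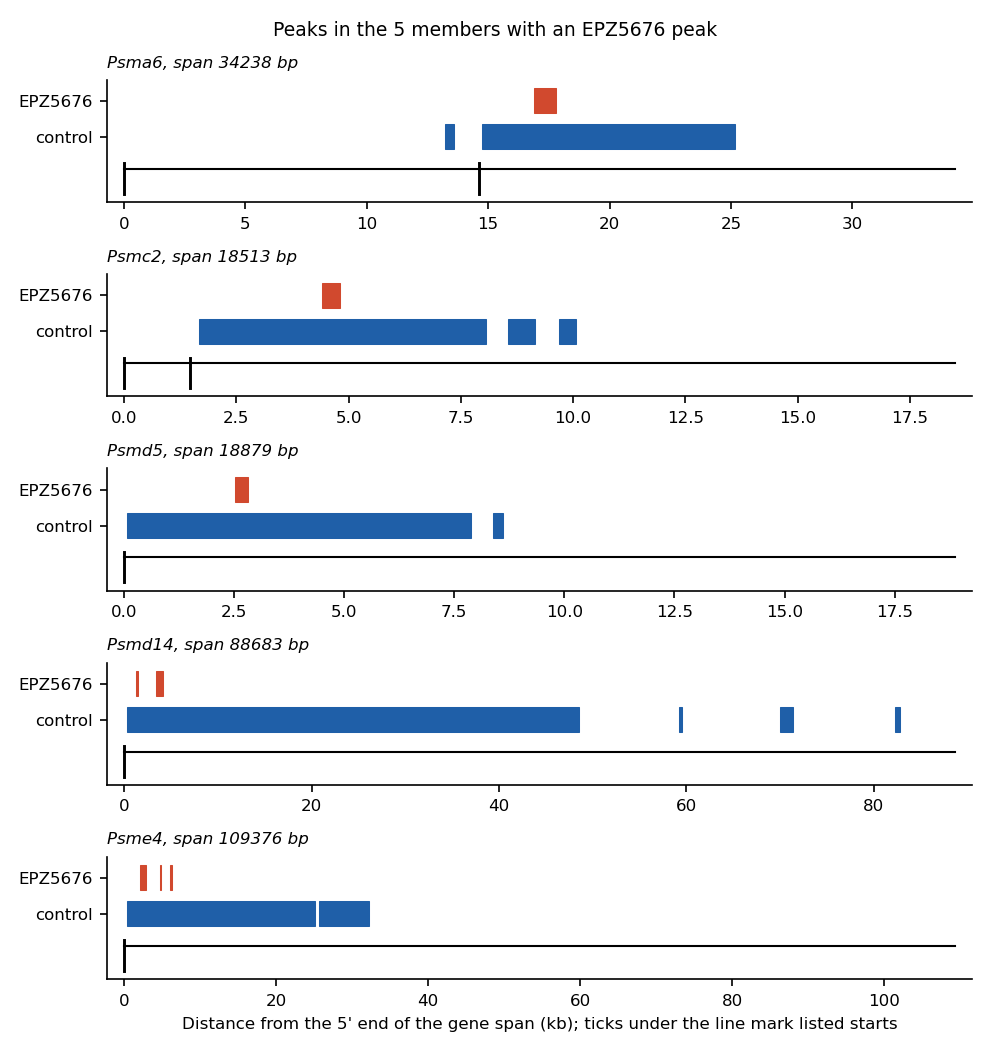
Control (blue) and EPZ5676 (red) peaks along the 5 genes with an EPZ5676 peak, against distance in kb from the 5′ end of the gene span; black ticks mark listed starts. Each red block sits above the strongest blue block, nearer its left than its right edge.

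Control peaks began just after the start of the gene. Of the 47 members, 39 had a start in the RefSeq promoter table, and 37 of those had a control peak. Measured from the nearest listed start, the strongest control peak began 0 to 500 bp downstream in 24 genes, further downstream in 5 and upstream in 8, with a median of 94 bp downstream. At Psmd1 it began 11 bp after the start, at Psme3 19 bp, at Psmc6 71 bp and at Psmd4 73 bp. The base at the start itself was covered in 9 of 39 members (23.1%), against 6.57% of 16456 genes with a listed start. The share of members inside a peak reached its highest value, 87.2%, at 4 offsets from 800 to 1700 bp downstream. The highest share of all genes was 44.5%, at 1600 bp. From about 7500 bp on the 2 curves crossed several times, with 15.4% of members and 21.3% of all genes inside a peak at 10000 bp and 23.1% and 20.4% at 11000 bp. The median span was 12293 bp for members and 17491 bp for all genes.

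**Figure D5:**
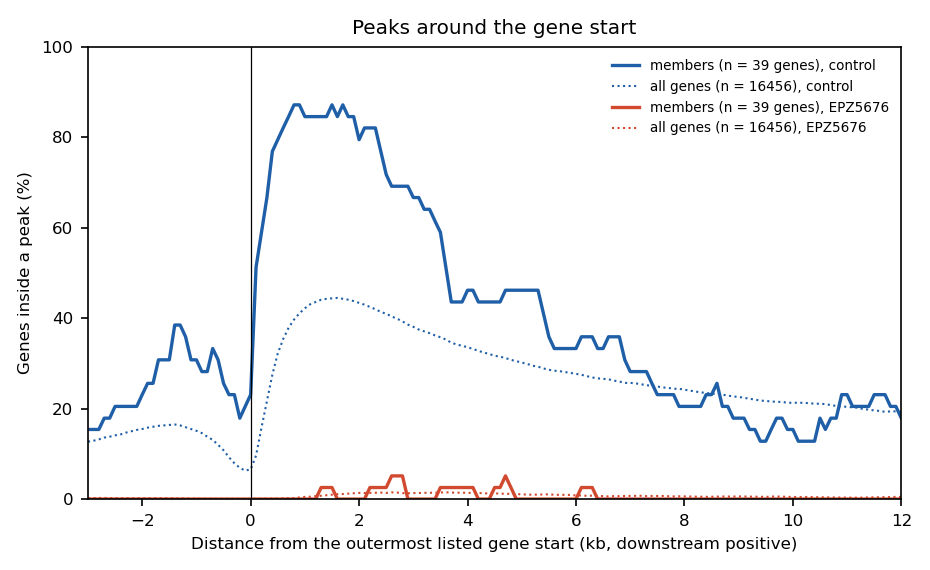
Percentage of genes inside a peak against distance in kb from the outermost listed start, for 39 members (solid) and 16456 protein-coding genes (dotted), in control (blue) and EPZ5676 (red) lists. Member coverage in the control rises from 23.1% at the start to 87.2% at 800 bp, and from about 7500 bp on it crosses that of all genes several times.

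In 2 members with an alternative start the strongest control peak began just after the inner one. Psma6 has a second listed start 14603 bp into the gene, and its strongest peak (10418 bp, fold 6.41) began 138 bp after that second start, while the first 5 kb from the outer start held 0 bp of control peaks. A weaker peak of 368 bp (fold 2.06) lay upstream of the second start, from 13210 to 13577 bp after the outer one. Psmc2 has a second start 1472 bp inside, and its strongest peak (6388 bp, fold 5.71) began 195 bp after it. Both are among the 5 genes with an EPZ5676 peak. Psme2 also has 2 listed starts, which lie 80 bp apart and cannot be separated at this resolution. The 5 members whose strongest peak began more than 500 bp after the nearest start were Psma2 (1495 bp), Psmg4 (929 bp), the immune forms Psmb9 (704 bp) and Psmb10 (635 bp), and Psmg1 (582 bp).

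Genes that act with the proteasome were also marked. Of 15 genes of proteasome-associated proteins, 15 had a control peak, with a median of 51.5% of the span, where 54.2% of all genes had a control peak. An EPZ5676 peak lay on 6 of the 15 (40.0%), against 13.0% of all genes and 14.6% of all genes of 20 to 50 kb. The median span of the 15 was 29559 bp. Sem1, which encodes the smallest 19S subunit and falls outside the symbol rule, was covered over 18409 bp (90.3%) in control cells and 2378 bp (11.7%) under EPZ5676, a larger remaining share than at any Psm gene. Other members with both peaks were the ubiquitin shuttle genes Rad23b (33383 and 1111 bp) and Ubqln1 (34391 and 910 bp), the scaffold gene Ecpas (37978 and 2117 bp), the ubiquitin ligase gene Ube3c (21520 and 1862 bp) and Txnl1 (20522 and 560 bp). The core maturation factor gene Pomp (87.5% of the span) and the ubiquitin receptor gene Adrm1 (66.2%) had control peaks only. Of 12 genes of proteasome gene regulation and ubiquitin supply, all 12 were marked in the control and 1 (8.33%) after EPZ5676, against 54.2% and 13.0% of all genes. Nfe2l1, which encodes a transcription factor of proteasome genes, had 91.8% of its span covered in the control and no EPZ5676 peak, and its relative Nfe2l2 kept 400 bp of coverage against 25379 bp in control cells. Of 10 genes of antigen processing, all 10 had a control peak, again against 54.2% of all genes, and none had an EPZ5676 peak. Their median span was 9742 bp, and an EPZ5676 peak lay on only 2.06% of all genes of 5 to 10 kb. The median control share of the 10 was 19.1%, with Tapbp at 95.3%, H2-K1 at 6.58% and Nlrc5 at 2.70%.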

How the data were processed

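H3K79me2 ChIP-seq peak lists of control and EPZ5676-treated cultures were used, 1 list per condition. The submitters' processing notes name bcl2fastq (2.20.0.422), deepTools, Trimmomatic and the build mm10. The aligner, the peak caller, the use of inputs and any pooling of replicates were not given in the sources used here. The lists have 9 columns in broad-peak format and no header line. The authors deposited for each peak a score (10 times its −log10 q, cut to a whole number, except for 4 control peaks), a fold enrichment as a ratio, a −log10 p-value and a −log10 q-value. These served to describe, rank and filter peaks within each list. The lowest −log10 p was 2.36 in the control and 4.03 in the EPZ5676 list. The number of unmapped per-sample columns was 0.

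Covered bases per RefSeq GRCm38.p6 gene span were computed after merging overlapping peaks (Python 3.11.15, pandas 2.3.3, numpy 2.4.6), and the coverage code was checked on simulated peaks. A gene counted as marked when at least 1 bp of its span was covered. Members and gene lists were chosen with earlier results of these data known. Named in full were members with an EPZ5676 peak or without a control peak, immune, thymus and testis forms with their partners, activators and regulators, and the 2 highest and 2 lowest of other role groups. Of 105 listed genes, 1 (Paaf1) was not matched. Starts came from the RefSeq promoter table, which matched 39 members; Psma8, Psmb1, Psmb2, Psmb7, Psmc3, Psmd3, Psmd7 and Psmg2 were not matched. Depth per sample is unknown, so counting error is not given.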

Additional observations from a re-analysis of the deposited data

How the results depend on the processing

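Each of 6 results was recomputed under 8 alternatives, and 40 of the 48 values stayed close to the reported one (counts within 1.5 times, the median share within its 95% order-statistic interval of 32.3 to 49.4%). Some of the 40 were fixed in advance. The median share does not depend on the settings of 500 bp or 10% of span. A −log10 p limit on control peaks alone leaves the EPZ5676 count as it was. Adding Psmd10 and Psme2b cannot change the counts of constitutive core genes or of immune, thymus and testis forms. The 8 values that moved were the count of members with an EPZ5676 peak and the equal count with both peaks. With at least 500 bp of span covered both were 3 (8.23% of all genes had such EPZ5676 coverage), with at least 10% of span 0 (0.39%), with −log10 q of at least 2 both were 1 (2.02%), and with peaks of at least 1000 bp 0 (2.56%). The cause is in the alternatives themselves. The limits on −log10 q and peak width remove weak or short peaks, and the limits on span ask for more covered bases per gene. The longest EPZ5676 peak in a member is 924 bp, and EPZ5676 peaks covered at most 2.7% of a member's span. The count with a control peak stayed between 44 and 46 wherever all 47 or 49 genes were counted, and Psmb10 joined Psmb8 and Psmb11 as unmarked with at least 500 bp of span or peaks of at least 1000 bp. The median share ran from 33.5% (spans extended by 1000 bp) to 39.8%. Leaving out a replicate could not be run, with 1 list per condition. No paired analysis was possible because each condition has 1 peak list and no result comes from a test. Unknown read depth limits what the lack of a peak shows: it is not the lack of the mark.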

Other observations

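Family members outside the symbol or chromosome rule differed from one another. Psmd10, the X-linked gene of the chaperone gankyrin (chromosome X, 140948425 to 140956711), had a single control peak of 320 bp, 3.86% of the span, with a fold of 2.17, below all 45 marked autosomal members in both share and fold. The cells came from testes, so X and autosomes may differ in copy number, which was not taken into account. The EPZ5676 list has no peak on X. Psme2b, a copy of Psme2 on chromosome 11, had no peak in either list, and neither had the annotated pseudogenes Psmb6-ps, Psmb6-ps2, Psmb5-ps, Psma5-ps, Psmb7-ps1 and Psmb7-ps2. Their spans are only 400 to 1066 bp. Of all protein-coding genes under 5 kb, 24.8% had a control peak and 0.875% an EPZ5676 peak. Psmb6-ps, Psmb7-ps1 and Psmb7-ps2 lie on X, where an EPZ5676 peak was absent throughout. Reads of copies with similar sequence can be divided between loci. The similarity of these copies was not measured, and the authors' treatment of such reads is not known here. Psmc3ip, which shares its name with Psmc3 but encodes a meiotic recombination factor, had 1962 bp in the control (59.5% of the span) and no EPZ5676 peak.

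Promoter windows of the members held a median of 19 CpG dinucleotides, against 14 over all windows, with 20 in Psmb5, 15 in Psmb6, 17 in Psmb9, 11 in Psmb8 and 3 in Psmb10. The GC box CCGCCC was present in 56.4% of member windows and 47.3% of all, and TATAAA in 10.3 and 13.5%.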
